A study of Mus musculus with 30 samples.

Results

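RNA was sequenced from mouse bone marrow cells grown for 6 days in GM-CSF, which turns marrow precursors into dendritic cells, and then exposed to viable conidia (spores) of the mould Aspergillus fumigatus, strain AF29. The cells came from Nlrx1-deficient mice (KO) and wild-type mice (WT). Nlrx1 encodes a NOD-like receptor family member located at mitochondria. RNA was taken before challenge (0 h) and at 3, 6, 9 and 12 h, which gave 10 groups of genotype and time with 3 libraries each. The genes described here are the cytokines of the interleukin-6 and interleukin-12 families that were listed by symbol: Il6, Osm and Lif for the first, and Il12a, Il12b, Il23a, Il27 and Ebi3 for the second. All 8 were found by Ensembl identifier among the 54532 genes of the count table. The labels do not state the deleted segment, the sex and age of the mice, or if the 3 libraries per group represent different animals or cultures. Each p-value therefore reflects how far these libraries differ among themselves, and that spread could be technical alone.

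Cytokines of the interleukin-6 family are single-chain proteins that signal through receptors containing the common subunit gp130, encoded by Il6st, and mainly activate the transcription factor STAT3. The interleukin-12 family is made of pairs. Il12b encodes the subunit that pairs with the Il12a product to form IL-12 and with the Il23a product to form IL-23, and Ebi3 encodes the partner of the Il27 product in IL-27. Dendritic cells are known as a source of these cytokines after contact with microbes, where IL-12 favours interferon-producing T cells and IL-23 and IL-6 favour IL-17-producing T cells.

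The 8 genes lie on GRCm38, with the positions of GENCODE M21, as follows. Il6 (ENSMUSG00000025746) spans chr5:30013114-30019981 on the plus strand. Osm (ENSMUSG00000058755, chr11:4236420-4241026) and Lif (ENSMUSG00000034394, chr11:4257557-4272514) lie on the plus strand with 16.5 kb between them. Il12a (ENSMUSG00000027776, chr3:68690644-68698547) and Il12b (ENSMUSG00000004296, chr11:44400063-44414033) are on the plus strand, and Il23a (ENSMUSG00000025383, chr10:128296139-128298752) is on the minus strand. Il27 (ENSMUSG00000044701, chr7:126589010-126594941, minus strand) overlaps Apobr on the opposite strand, which had 223 to 514 counts per library. Ebi3 (ENSMUSG00000003206, chr17:55952640-55957022, plus strand) overlaps the antisense gene Gm16712, which had 0 to 12 counts per library. The libraries were made with a kit that keeps strand, but the labels do not state whether strand was used in counting, so reads of Il27 and Ebi3 cannot be told apart with certainty from those of these partners.

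The promoters of Il6, Il12b and Lif are shown because these genes had most counts in the same groups, at 12 h. Each line gives the 250 bases before the RefSeq start on GRCm38.p6, plus strand, 5′ to 3′. Capitals mark matches, on either strand, to 4 motifs: the full NF-kappaB motif, which is GGGA followed by NNNN and then CC, its short relative GGGANTTT, TGANTCA for AP-1 and TTGCNNAA for C/EBP. Windows are chr5:30012864-30013113 for Il6, chr11:44399813-44400062 for Il12b and chr11:4257318-4257567 for Lif.
Il6: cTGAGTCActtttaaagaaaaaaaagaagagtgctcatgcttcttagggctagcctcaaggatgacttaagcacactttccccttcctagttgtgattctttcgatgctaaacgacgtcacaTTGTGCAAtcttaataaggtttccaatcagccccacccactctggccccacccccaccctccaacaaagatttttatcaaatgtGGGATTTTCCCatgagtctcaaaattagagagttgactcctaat
Il12b: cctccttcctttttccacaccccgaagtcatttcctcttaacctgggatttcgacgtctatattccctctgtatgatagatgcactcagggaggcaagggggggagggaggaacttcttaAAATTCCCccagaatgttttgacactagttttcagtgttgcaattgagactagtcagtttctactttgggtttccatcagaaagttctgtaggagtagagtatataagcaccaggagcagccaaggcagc
Lif: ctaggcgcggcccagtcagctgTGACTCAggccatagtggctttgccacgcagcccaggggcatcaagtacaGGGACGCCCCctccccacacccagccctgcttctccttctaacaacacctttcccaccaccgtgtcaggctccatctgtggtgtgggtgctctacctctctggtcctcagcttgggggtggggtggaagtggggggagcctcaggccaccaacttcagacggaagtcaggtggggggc

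The Il6 window held 1 block with the full NF-kappaB motif on both strands, starting 44 bases before the start, and GGGANTTT lay within the same block. It also held TTGCNNAA on the minus strand, 128 bases before the start, and TGANTCA, 249 bases before it. The Lif window held the full NF-kappaB motif, 178 bases before the start, and TGANTCA, 228 bases before it. In the Il12b window GGGANTTT matched on the minus strand, 130 bases before the start, and the other 3 motifs were not found. Among the 32851 promoter windows of the same length, 17.6% held the full NF-kappaB motif, 3.95% GGGANTTT, 6.75% TGANTCA and 9.56% TTGCNNAA. GGGANTTT was chosen with these sequences in view. The matches describe letters only, and factor binding was not measured. Of the 8 genes, 5 were in the RefSeq promoter table, and Il23a, Il27 and Osm were not. In the same table the Ebi3 window held the full NF-kappaB motif on the minus strand, 44 bases before the start, and a window of Il12a held it on both strands.

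Total counts per library were 1722384 to 3509429, with a median of 2492886. Nlrx1 itself had 0 to 14 counts in the 15 KO libraries and 13 to 46 in the 15 WT libraries. All 8 dendritic cell markers were detected, at a summed 2580 to 3680 CPM (counts relative to the scaled library total) per library, while markers of B cells, T and NK cells and erythroid cells each summed to under 10 CPM. Mast cell and basophil markers reached 31.1 CPM with Fcer1a at 0 everywhere, and stromal markers summed to 12.4 to 48.5 CPM. Among the dendritic cell markers Flt3 had 46 counts over all libraries and group means of at most 1.18 CPM. Each macrophage marker was found in every group. The neutrophil marker Mmp8 had group means of 621 to 841 CPM. Of the other neutrophil markers, S100a9 had group means of 86 to 396 CPM and S100a8 of 49.1 to 148 CPM. Those of Ngp were 32.2 to 156 CPM and those of Ltf 17.6 to 83.8 CPM. Ly6g, Retnlg, Mpo and Elane had group means of at most 2.98 CPM, and Camp, Retnlg, Mpo and Elane had a lowest group mean of 0 CPM. Marker sums are given below beside the results they move with. Genes with low counts were left out of the tests by a filter that asks for 4.01 CPM in at least 3 libraries. It kept 12393 genes and 6 of the 8 cytokines, and removed Il12a and Il27. Il6 was over that level in the 3 KO libraries at 12 h only, and Il23a in 12 h libraries only, so their passing already requires that they were high there, and the numbers of cytokines called below are descriptions of these 8 genes and not evidence about the families.

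Across the course the family fell into 3 patterns. Il12b, Il23a, Osm and Lif were highest at 12 h in both genotypes and differed from 0 h in each, Il6 was also highest at 12 h and differed from 0 h in KO cells, and Ebi3 was detected in all 30 libraries with no tested change over time. Il12a and Il27 stayed near the limit of detection. In a bulk sample, fewer cells making a transcript and less transcript per cell cannot be told apart.

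**Figure D1:**
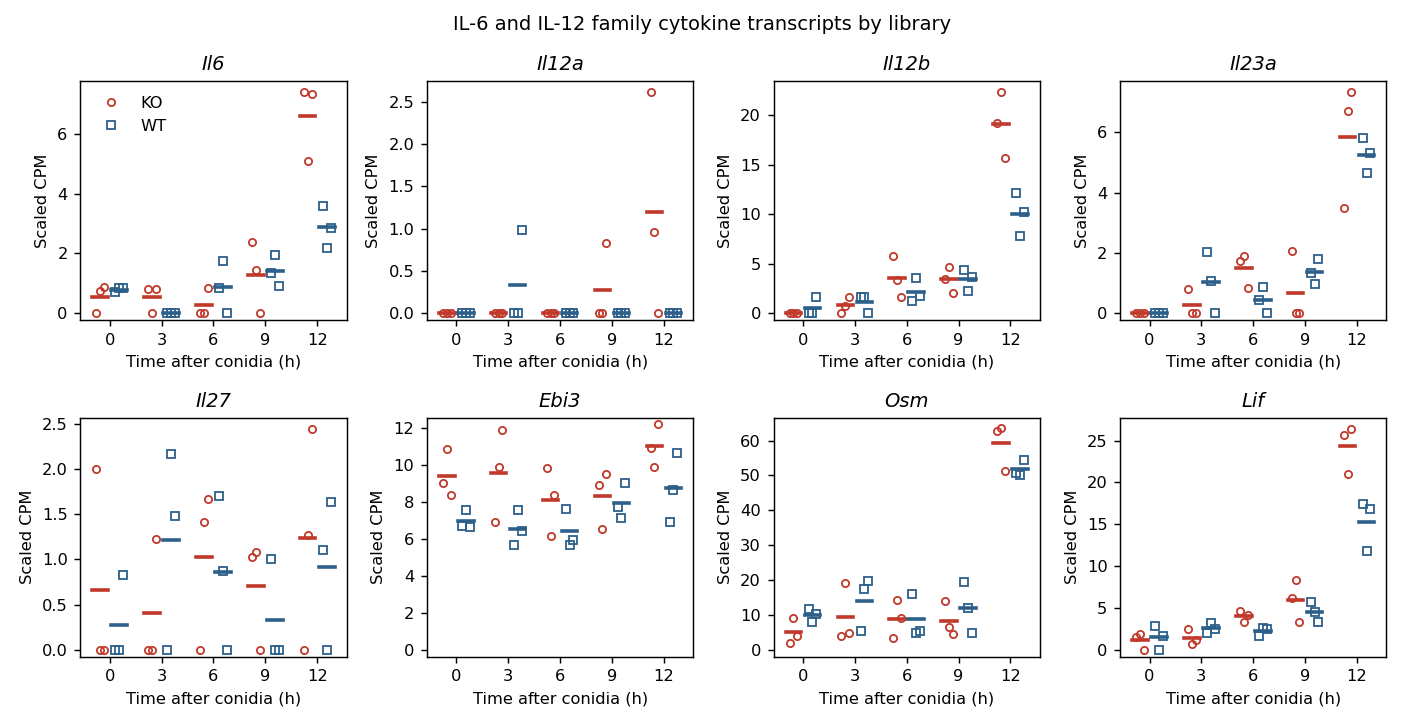
Scaled CPM (vertical axis, linear, separate scale in each panel) of the 8 cytokine genes in each of the 30 libraries by time after conidia in hours, with KO circles left of WT squares and a bar at each group mean (n = 3). Osm, Lif, Il12b, Il23a and Il6 are highest at 12 h, Ebi3 lies between 5.66 and 12.2 CPM at all times, and Il12a and Il27 have many libraries at 0.

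Il6, the founding cytokine of its family and a driver of acute inflammation, gave few reads before the last time. In KO cells its raw counts were 0, 2 and 2 before challenge, 2, 0 and 2 after 3 h, 0, 0 and 2 after 6 h, 7, 4 and 0 after 9 h, and 17, 16 and 15 after 12 h. In WT cells they were 2, 2 and 2 before challenge, 0, 0 and 0 after 3 h, 2, 4 and 0 after 6 h, 4, 6 and 3 after 9 h, and 13, 7 and 7 after 12 h. Every 12 h library was above all earlier libraries of its genotype, scaled to library size, and the KO libraries at 12 h were above those of WT. The mean level was 6.62 ± 1.31 CPM in KO cells at 12 h and 0.544 ± 0.476 CPM in KO cells at 0 h (SD, n = 3 each). The log2 change was 3.41 ± 0.82 (standard error of the fit), with an adjusted p of 0.00511 by the quasi-likelihood test of edgeR, adjusted after Benjamini and Hochberg over the whole table. In WT cells Il6 averaged 2.88 ± 0.716 CPM at 12 h and 0.792 ± 0.0742 CPM at 0 h (SD, n = 3 each). That log2 difference of 1.81 ± 0.81 did not pass the threshold of 0.05 (adjusted p = 0.131, edgeR), although its interval of 0.14 to 3.49 lies above 0. The absence of counts at 3 h in WT cells allows up to 0.473 CPM, from 3 counts over the group.

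Osm, oncostatin M, a cytokine of myeloid cells that acts on stromal and endothelial cells, had the highest counts of the 8 genes. KO libraries had 4, 24 and 9 counts before challenge, 10, 54 and 12 after 3 h, 6, 30 and 22 after 6 h, 41, 18 and 11 after 9 h, and 144, 199 and 105 after 12 h. WT libraries had 33, 19 and 25 counts before challenge, 13, 32 and 40 after 3 h, 38, 11 and 13 after 6 h, 58, 37 and 16 after 9 h, and 183, 162 and 133 after 12 h. The replicates at 0 to 9 h were widely spread and overlapped between times, and the 12 h libraries stood above all of them. Osm rose to 59.2 ± 6.8 CPM in KO cells at 12 h, against 4.99 ± 3.6 CPM at 0 h (SD, n = 3 each), a log2 change of 3.49 ± 0.59 (edgeR adjusted p = 0.000185). It rose to 51.7 ± 2.36 CPM in WT cells at 12 h, against 10.0 ± 1.87 CPM at 0 h (SD, n = 3 each), a log2 change of 2.36 ± 0.53 (edgeR adjusted p = 0.00268). The KO change was 4.26 without KO 0 h replicate 2, the highest of the 3 KO libraries at 0 h.

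Lif, leukaemia inhibitory factor, a cytokine with roles in stem cell maintenance and inflammation, was called higher than at 0 h from 9 h on in KO cells and at 12 h in WT cells. Its counts in KO cells were 3, 5 and 0 before challenge, 6, 2 and 3 after 3 h, 8, 7 and 10 after 6 h, 18, 23 and 8 after 9 h, and 59, 66 and 54 after 12 h. WT counts were 8, 0 and 4 before challenge, 5, 6 and 5 after 3 h, 4, 6 and 6 after 6 h, 17, 14 and 11 after 9 h, and 63, 38 and 41 after 12 h. The 9 h libraries lay above the 0 h libraries in each genotype, and the 12 h libraries above those. At 9 h the log2 change was 2.33 ± 0.57 in KO cells (edgeR adjusted p = 0.00673) and 1.5 ± 0.54 in WT cells (edgeR adjusted p = 0.0767). Without WT 0 h replicate 1 the WT value at 9 h was 2.36, and it passed (edgeR adjusted p = 0.0299). At 12 h Lif averaged 24.4 ± 2.92 CPM in KO cells, against 1.13 ± 0.992 CPM in KO cells at 0 h (SD, n = 3 each), a log2 change of 4.34 ± 0.50 (edgeR adjusted p = 2.49e-07). In WT cells it averaged 15.3 ± 3.11 CPM at 12 h and 1.49 ± 1.42 CPM at 0 h (SD, n = 3 each), a log2 change of 3.26 ± 0.47 (edgeR adjusted p = 1.05e-05). The KO value was 5.00 without KO 0 h replicate 2 and the WT value 4.12 without WT 0 h replicate 1. At 9 h the KO value was 3.00 without KO 0 h replicate 2.

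Il12b, the subunit common to IL-12 and IL-23, had no read in any KO library before challenge. KO counts were 0, 0 and 0 before challenge, 0, 2 and 4 after 3 h, 10, 7 and 4 after 6 h, 10, 13 and 5 after 9 h, and 44, 70 and 32 after 12 h. WT counts were 0, 0 and 4 before challenge, 4, 3 and 0 after 3 h, 3, 8 and 4 after 6 h, 13, 7 and 12 after 9 h, and 44, 25 and 25 after 12 h. All KO libraries from 6 h on were above those at 0 h, and so were all WT libraries from 9 h on. With the empty 0 h group set to 3 counts, the KO level was at least 7.78-fold higher at 6 h than at 0 h (edgeR adjusted p = 0.00651), at least 7.98-fold higher at 9 h (edgeR adjusted p = 0.00309) and at least 45.1-fold higher at 12 h (edgeR adjusted p = 9.25e-07). In WT cells Il12b reached 10.1 ± 2.23 CPM at 12 h, against 0.553 ± 0.958 CPM at 0 h (SD, n = 3 each), a log2 change of 4.13 ± 0.70 (edgeR adjusted p = 0.000127). Its WT change at 9 h was 2.58 ± 0.80 (edgeR adjusted p = 0.0395). The 4 WT counts at 0 h all came from replicate 3. Without that library the WT 0 h group held no count. The fitted values of 7.68 at 12 h and 6.14 at 9 h are then not measured sizes. Without WT 0 h replicate 1 the WT change was 3.52 at 12 h and 1.97 at 9 h. The WT call at 9 h was lost in 4 of the 6 fits that left out a library (edgeR adjusted p up to 0.174).

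Il23a, the subunit specific to IL-23, had no read at 0 h in either genotype, which allows up to 0.433 CPM in KO cells and 0.393 CPM in WT cells. Its KO counts were 2, 0 and 0 after 3 h, 3, 4 and 2 after 6 h, 6, 0 and 0 after 9 h, and 8, 21 and 15 after 12 h. Its WT counts were 5, 2 and 0 after 3 h, 1, 2 and 0 after 6 h, 4, 3 and 6 after 9 h, and 21, 15 and 13 after 12 h. The 12 h libraries were above all others. From 3 to 9 h the levels stayed at or under 2.05 CPM, with the KO libraries at 6 h above those at 3 h and the WT libraries at 9 h above those at 6 h. At 12 h Il23a was at least 13.6-fold higher than at 0 h in KO cells (edgeR adjusted p = 0.00112) and at least 13.4-fold higher in WT cells (edgeR adjusted p = 0.000985).

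Ebi3, the partner of the Il27 product, was expressed before challenge. KO counts were 18, 29 and 19 at 0 h and 25, 31 and 25 at 12 h, and WT counts were 19, 18 and 16 at 0 h and 25, 28 and 26 at 12 h. At 3, 6 and 9 h the counts ran from 13 to 29 in KO cells and from 13 to 30 in WT cells. The log2 difference between 12 h and 0 h was 0.21 ± 0.22 in KO cells (interval -0.25 to 0.67) and 0.31 ± 0.23 in WT cells (interval -0.16 to 0.78), and neither passed the threshold (edgeR adjusted p = 0.688 in KO cells and 0.476 in WT cells). Il27, the other IL-27 subunit, had 55 counts over all 30 libraries, at most 5 in any, and 14 libraries had none. Il12a, which encodes the partner of the Il12b product in IL-12, had 13 counts in 4 libraries. Of these counts 6 and 3 were in KO libraries at 12 h, 2 in a KO library at 9 h and 2 in a WT library at 3 h.

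For these 2 genes the counts were compared with exact permutation tests within genotype or within time. The difference between 12 h and 0 h had a two-sided exact permutation p of 0.275 for Il27 and 0.4 for Il12a, and that between KO and WT had an exact permutation p of 0.769 for Il27 and 0.45 for Il12a. After adjustment over the 6 such tests the lowest exact permutation p was 0.9. With the few libraries in which Il12a had counts, its exact permutation p could not go below 0.4 for 12 h against 0 h or 0.1 between the genotypes, so these tests could not pass. The 9 counts of Il12a in KO cells at 12 h against 0 in KO cells at 0 h correspond to a level at least 2.78-fold higher against the floor, with an unadjusted p of 0.0296 and an adjusted p of 0.408 when edgeR was run without the filter. Against the WT cells at 12 h the unadjusted p was 0.0201 and the adjusted p 0.847 in the same fit. In both comparisons the groups overlapped because 1 of the 3 libraries at 12 h had none.

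**Figure D2:**
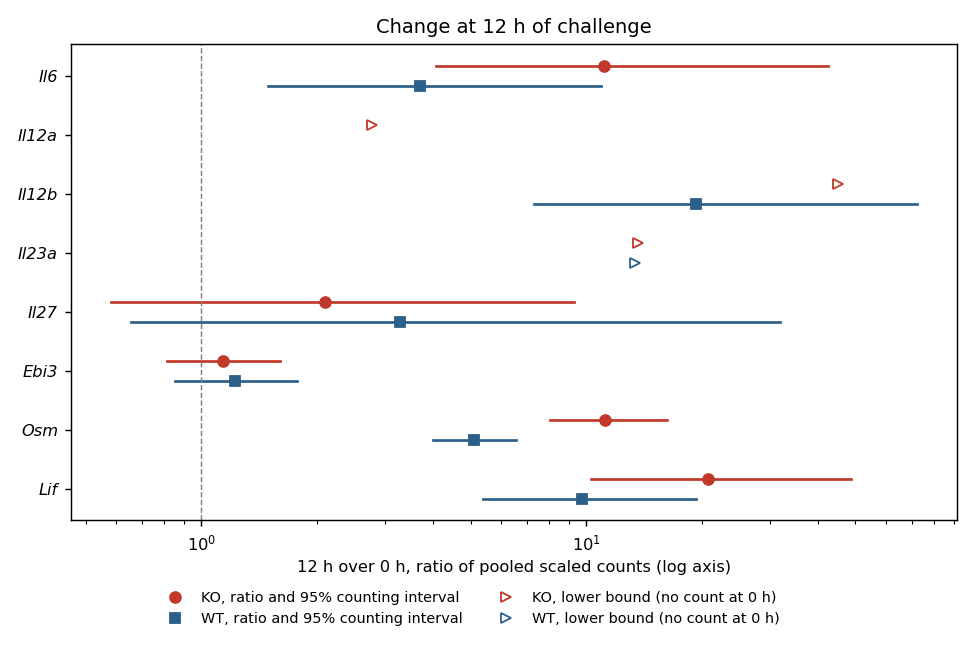
Ratio of pooled counts at 12 h over 0 h, scaled to library totals, on a log axis, with KO above WT for each gene. Filled symbols with lines are ratios with 95% counting intervals, open triangles are lower bounds where no count was seen at 0 h, and Il12a in WT has no point because it had no count at either time. The intervals of Ebi3 and Il27 include 1, and those of Il6, Il12b, Osm and Lif lie above it. All these intervals hold counting error alone and leave out the spread between libraries. Il6 in WT cells was not called (edgeR adjusted p = 0.131).

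Comparison by comparison, 5 of the 8 genes were called higher at 12 h than at 0 h in KO cells (Il6, Il12b, Il23a, Osm and Lif), where 8.13% of all genes tested were called higher. In WT cells 4 of the 8 were called higher (Il12b, Il23a, Osm and Lif), where 9.64% of all genes tested were. At 9 h these numbers were 2 in KO cells (Il12b and Lif, with 5.86% of all genes called higher) and 1 in WT cells (Il12b, with 5.57%). At 6 h Il12b was called in KO cells, with 3.21% of all genes called higher, and 0 of the 8 were called by edgeR in WT cells, with 3.29%, where 1 had an unadjusted p under 0.05 and DESeq2 called 0. At 3 h edgeR called 0 of the 8 in KO cells (1.22% of genes called in either direction, 1 cytokine with an unadjusted p under 0.05) and 0 in WT cells (1.02%, 2 cytokines with an unadjusted p under 0.05). DESeq2 also called 0 at 3 h and gave an adjusted p for 1 of the 6. A median over the tested cytokines is not given, since several entered the tests through their 12 h values.

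The WT libraries at 12 h also differed in composition from the earlier WT libraries. Small and structural RNA genes took 3.92% of the counts in WT cells at 12 h, against 5.82% at 0 h and 6.15% at 9 h, and in KO cells they took between 3.33% and 3.87% at all times. With this share as a covariate, a setting chosen after the data were seen, none of the 4 WT calls at 12 h passed (edgeR adjusted p = 0.466 for Il12b, 0.215 for Il23a, 0.678 for Osm and 0.328 for Lif), and all 5 KO calls did. The WT log2 changes were then 2.85 ± 1.39 for Il12b, 1.82 ± 1.27 for Osm and 2.47 ± 1.03 for Lif, smaller than without the covariate and with larger standard errors, and Il23a has no size because its 0 h group is empty. The 3 WT libraries at 12 h, at 3.82% to 4.005%, lay below every other WT library, so the time and the share cannot be told apart in WT cells. A lost call under this covariate does not show that the change is absent.

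Marker sums also differed between 12 h and 0 h. The dendritic cell markers were 3250 to 3350 CPM in KO cells at 12 h, against 3340 to 3680 CPM at 0 h, and 2580 to 2950 CPM in WT cells at 12 h, against 3240 to 3410 CPM at 0 h. The macrophage markers were 2090 to 2290 CPM in KO cells at 12 h, against 2440 to 2670 CPM at 0 h, and 2580 to 2650 CPM in WT cells at 12 h, against 3380 to 3560 CPM at 0 h. Of the 10 macrophage markers 5 fell and 2 rose in KO cells, and 6 fell and 2 rose in WT cells. Of the 7 dendritic cell markers tested 1 fell and 0 rose in KO cells, and 4 fell and 1 rose in WT cells. Of the 6 neutrophil markers tested 1 fell and 0 rose in each genotype. Over all genes tested 6.58% fell and 8.13% rose in KO cells, and 8.47% fell and 9.64% rose in WT cells (edgeR). The neutrophil markers were 795 to 829 CPM in KO cells at 12 h, against 958 to 999 CPM at 0 h, and 1050 to 1180 CPM in WT cells at 12 h, against 1200 to 1250 CPM at 0 h. The 5 stromal markers (Col1a1, Col1a2, Col3a1, Dcn and Sparc) summed to a mean of 42.8 CPM in KO cells at 12 h, against 26.4 CPM at 0 h with no overlap of libraries, and to 29.6 CPM in WT cells at 12 h, against 20.5 CPM at 0 h with overlap. Of the 4 stromal markers tested none passed the edgeR threshold in either genotype. The part of these shifts in the cytokine changes was not tested.

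The last interval was then taken alone. From 9 h to 12 h Il12b rose in KO cells by 2.46 ± 0.49 (edgeR adjusted p = 0.0027), Osm by 2.79 ± 0.54 (adjusted p = 0.00213) and Lif by 2.01 ± 0.37 (adjusted p = 0.001), all as log2 changes. Il23a was called too in KO cells, at 2.92 ± 0.82 (edgeR adjusted p = 0.0435). This call was lost in 4 of the 6 fits that left out a library. KO 9 h replicate 1 held all 6 reads of its group, so the fitted 6.89 without it is not a measured size. The Osm step was 3.39 without the same library. In WT cells Osm rose by 2.11 ± 0.50 (edgeR adjusted p = 0.00726), Lif by 1.76 ± 0.39 (adjusted p = 0.00292) and Il12b by 1.55 ± 0.50 (adjusted p = 0.0468). The Il12b call was lost in each of the 6 fits that left out a WT library of these times (adjusted p from 0.0608 to 0.175), and that of Osm was lost without WT 9 h replicate 3 (adjusted p = 0.051). Il6 did not pass over this interval, with log2 differences of 2.26 ± 0.70 in KO cells (edgeR adjusted p = 0.0667) and 1.03 ± 0.71 in WT cells (edgeR adjusted p = 0.423). Il23a did not pass in WT cells, at 1.89 ± 0.72 (edgeR adjusted p = 0.105), but did when the fit held only the groups compared (1.91, adjusted p = 0.0167). The calls were 4 of the 8 genes in KO cells, where 2.65% of all genes were called higher, and 3 of the 8 in WT cells, where 5.16% were. With the small RNA share as a covariate none of the 3 WT calls passed, at 1.5 ± 1.4 for Osm, 0.86 ± 1.11 for Lif and 0.05 ± 2.07 for Il12b, and the KO call of Il23a was lost (adjusted p = 0.0515).

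The genotypes were then compared at each time. At 12 h Il6, Il12b and Lif were higher in every KO library than in any WT library, 3 of the 8 genes, where 9.03% of all genes tested showed that order. Il6 had entered the tests through these 3 KO libraries. By edgeR 0 of the 6 tested cytokines were called at 12 h, where 1.9% of all genes were called in either direction, Il12b had an unadjusted p under 0.05, and DESeq2 called 0 with no adjusted p for Il6 and Il23a. Il6 had 48 pooled counts in KO cells and 27 in WT cells, a log2 difference of 1.17 ± 0.62 with an interval of -0.11 to 2.45 (edgeR adjusted p = 0.501). Il12b had 146 in KO cells and 94 in WT cells, a log2 difference of 0.92 ± 0.43 with an interval of 0.03 to 1.82 (edgeR adjusted p = 0.409). Lif had 179 in KO cells and 142 in WT cells, a log2 difference of 0.66 ± 0.34 with an interval of -0.03 to 1.36 (edgeR adjusted p = 0.472). Il23a, Osm and Ebi3 overlapped between genotypes at 12 h, with log2 differences of 0.15 ± 0.63, 0.20 ± 0.44 and 0.34 ± 0.22 in that order (edgeR adjusted p = 0.978, 0.937 and 0.618). The intervals of Il6, Il12b and Lif leave room for a doubling in KO cells, and a p that misses the threshold does not show that the genotypes act alike. The small RNA share at 12 h was 3.205% to 3.535% in KO libraries and 3.822% to 4.005% in WT libraries. Genotype and share thus cannot be told apart there. With the share as a covariate the log2 differences were 1.58 ± 0.85 for Il6, 0.53 ± 0.57 for Il12b and 0.42 ± 0.44 for Lif.

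At 12 h the summed dendritic cell markers were 3250 to 3350 CPM in KO cells and 2580 to 2950 CPM in WT cells. The neutrophil markers summed to 795 to 829 CPM in KO cells and 1050 to 1180 CPM in WT cells, and the macrophage markers to 2090 to 2290 CPM in KO cells and 2580 to 2650 CPM in WT cells. The stromal markers summed to 37.2 to 48.5 CPM in KO cells and 19.5 to 39.0 CPM in WT cells. Over all libraries of the series together, all 8, 10, 10 and 5 genes of these lists had counts, some of them few. The part of these differences in the cytokine levels was not tested.

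**Figure D3:**
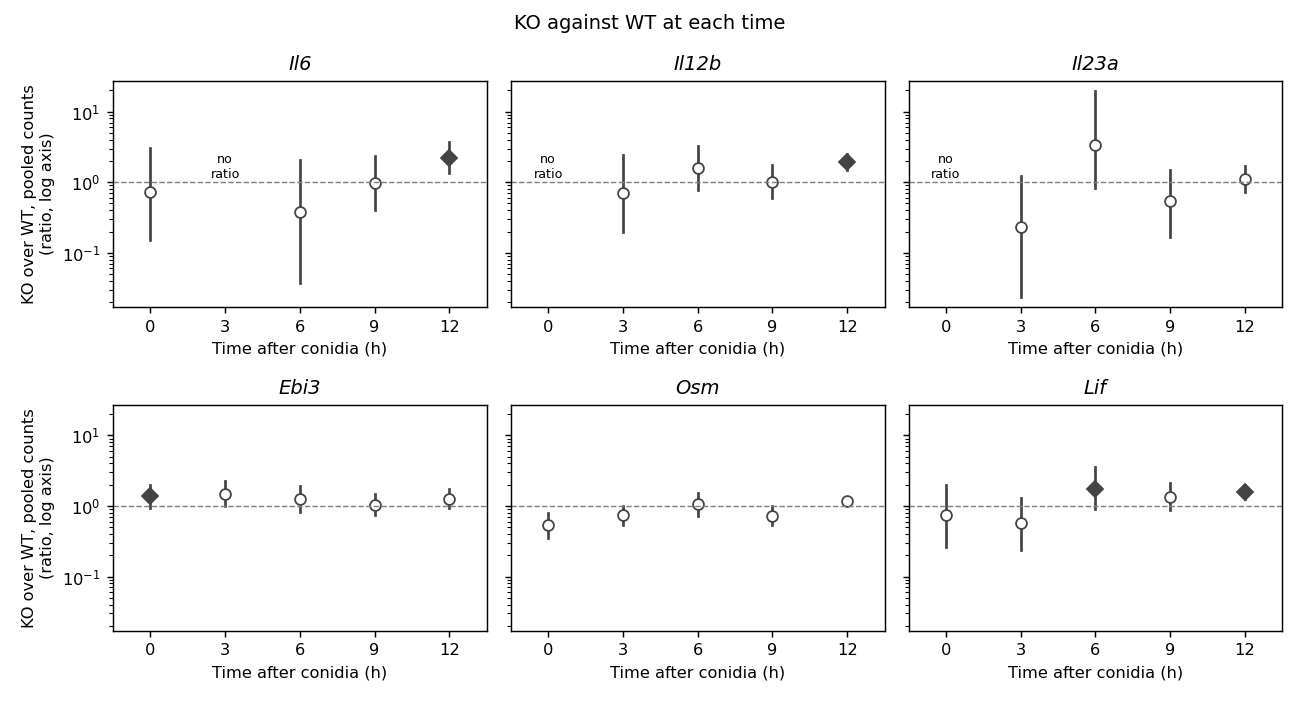
Ratio of pooled counts in KO over WT cells at each time, scaled to library totals, on a log axis, with 95% counting intervals. Filled diamonds mark times at which the 3 KO and the 3 WT libraries did not overlap, open circles those at which they did, and "no ratio" a time with no count in a genotype. The ratios of Il6, Il12b and Lif at 12 h are 2.21, 1.93 and 1.57. The intervals hold counting error alone and leave out the spread between libraries, and edgeR called no gene shown at any of these times.

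Before 12 h no cytokine was called between the genotypes. At 0, 3, 6 and 9 h edgeR called 0 of the 6 tested cytokines between KO and WT, where 5.02%, 6.92%, 5.78% and 5.06% of all genes were called at these times. The small RNA share was lower in every KO library than in any WT library at each of these times. Genotype and share therefore cannot be told apart. With the share as a covariate edgeR called 6, 1, 1 and 0 genes in all between KO and WT at 0, 3, 6 and 9 h. Every KO library was above every WT library for Lif at 6 h, with 3.31 to 4.62 CPM in KO cells and 1.7 to 2.63 CPM in WT cells, an order that 11.8% of all genes tested showed. The same held for Ebi3 at 0 h, with 8.39 to 10.9 CPM in KO cells and 6.64 to 7.55 CPM in WT cells, an order that 11.4% showed. Ebi3 at 3 h was the single case with an unadjusted p under 0.05, and DESeq2 called 0 at each time, with no adjusted p for Il6, Il12b and Il23a at 0 and 9 h. Osm had 37 pooled counts in KO cells and 77 in WT cells at 0 h. The ratio was 0.529, with a 95% counting interval of 0.347 to 0.792 that leaves out the spread between libraries. The 3 libraries of each genotype overlapped, and the fitted log2 difference of -0.93 ± 0.71 was not called (edgeR adjusted p = 0.553). Over all 5 times together Ebi3 was higher in KO than in WT cells by 0.34 ± 0.10 on the log2 scale (edgeR adjusted p = 0.0174), where 24.9% of all genes were called. Its libraries ran from 6.16 to 12.2 CPM in KO cells and from 5.66 to 10.6 CPM in WT cells, with overlap at 3, 6, 9 and 12 h. This call was lost without the filter (0.29, adjusted p = 0.138), with DESeq2 (0.35, adjusted p = 0.101) and with the small RNA share as a covariate (0.89 ± 0.55), while the log2 difference kept its direction. For Osm and Lif the same log2 difference was -0.33 ± 0.28 and 0.13 ± 0.26 (edgeR adjusted p = 0.414 and 0.766).

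Whether the response itself differed between genotypes was tested with the interaction of genotype and time. By edgeR 0 of the 6 tested cytokines had a called difference in the change from 0 h to 12 h, where 0.726% of all genes did, with Il12b at an unadjusted p under 0.05, and DESeq2 gave no adjusted p for the 6. The KO change minus the WT change was 1.60 ± 1.28 for Il6, 1.13 ± 0.83 for Osm, 1.09 ± 0.80 for Lif and -0.10 ± 0.32 for Ebi3 on the log2 scale (edgeR adjusted p = 0.712, 0.679, 0.674 and 0.96). Il12b and Il23a had groups without a count, so no size is given for them. The interactions at 3, 6 and 9 h and over the step from 9 h to 12 h also had 0 cytokines called by edgeR, where 0%, 0%, 0.105% and 0.218% of all genes were called, and 0 by DESeq2, which gave no adjusted p over the step, with 1 at an unadjusted p under 0.05 (Il12b at 6 h). A call for Il6 at 12 h in KO cells and none in WT cells does not show that its response differed.

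Levels can be compared between genes only per length of transcript. Per kb of exon, Osm was the most abundant at 12 h, at 26.1 ± 2.99 CPM per kb in KO cells and 22.8 ± 1.04 CPM per kb in WT cells (SD, n = 3 each). Il12b stood at 9.69 ± 1.7 CPM per kb in KO cells and 5.11 ± 1.13 CPM per kb in WT cells. Of its 2 possible partners, Il23a was at 2.6 ± 0.918 CPM per kb in KO cells and 2.34 ± 0.261 CPM per kb in WT cells. Il12a was at 0.7 ± 0.778 CPM per kb in KO cells and had no count in WT cells, which allows up to 0.323 CPM (before division by length). For IL-27, Ebi3 was at 9.53 ± 1.02 CPM per kb in KO cells and 7.58 ± 1.62 CPM per kb in WT cells, against 1.21 ± 1.2 and 0.896 ± 0.818 CPM per kb of Il27 in the same groups. Lif was at 5.61 ± 0.671 CPM per kb in KO cells and 3.52 ± 0.714 CPM per kb in WT cells. Il6 was at 2.72 ± 0.54 CPM per kb in KO cells and 1.18 ± 0.295 CPM per kb in WT cells. By these means Il6 was below Osm, Il12b, Ebi3 and Lif and above Il27 and Il12a in both genotypes. It was close to Il23a in KO cells and below Il23a in WT cells. At 0 h the order was different, and Ebi3 led with 8.17 ± 1.12 CPM per kb in KO cells and 6.04 ± 0.44 CPM per kb in WT cells.

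**Figure D4:**
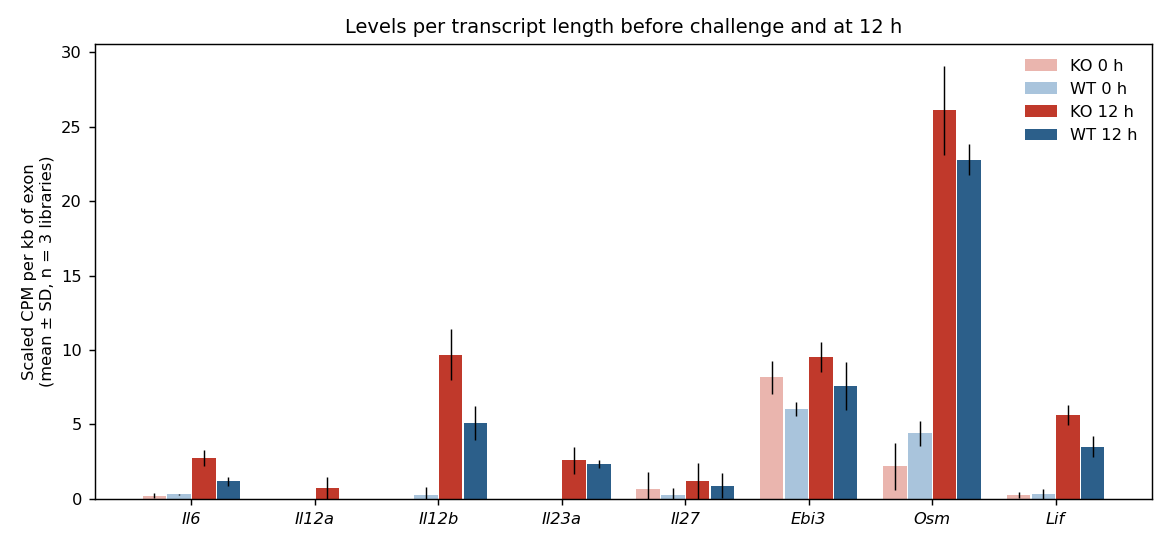
Mean scaled CPM per kb of exon (vertical axis, linear, from 0) of the 8 genes in KO and WT cells at 0 h (pale) and 12 h (dark), with SD over 3 libraries, error bars being cut at 0. Ebi3 is highest at 0 h and Osm at 12 h, and Il12b exceeds both Il23a and Il12a at 12 h.

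Ranked over the 10 groups by mean CPM, KO at 12 h came first for each of the 8 genes. WT at 12 h came second for Il6, Il12b, Il23a, Osm and Lif. The libraries of KO at 12 h did not overlap those of WT at 12 h for Il6, Il12b and Lif, and overlapped them for Il23a and Osm. WT at 12 h was separate from the next lower group for these 5 genes. Below that, all neighbours in the order overlapped for Il6, Il12b, Il23a and Osm. For Lif the groups KO at 9 h, WT at 9 h and KO at 6 h came next, with means of 5.93, 4.52 and 4.04 CPM, and KO at 6 h was separate from WT at 3 h below it. For Ebi3, Il12a and Il27 every neighbour in the order overlapped.

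The genes most like each cytokine were found by Pearson's r of the mean log2 CPM over the 10 groups, among 11146 genes. Groups of a time share their challenge and those of a genotype their source, so these values are descriptions. Il12b was closest to Lif (r = 0.98), Gm49774, listed as an antisense RNA gene (r = 0.975), and Ptgs2 (r = 0.974). Lif was closest to Tnfaip3 (r = 0.99), Ptgs2 (r = 0.986) and AC166110.4 (r = 0.983). Il23a was closest to Maff (r = 0.962), Lif (r = 0.945) and Irs2 (r = 0.94), and Osm to Fos (r = 0.967), Junb (r = 0.96) and Nlrp3 (r = 0.958). Il6 was closest to Tm4sf19 (r = 0.951), Birc2 (r = 0.929) and Bmp2 (r = 0.927). Ebi3 went with other genes, Dubr (r = 0.972), Cops2 (r = 0.935) and H2-M2 (r = 0.935), and its r with the other 5 tested cytokines was 0.384 to 0.615.

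In the authors' deposited table of KO cells at 12 h over 0 h, which lists genes under an adjusted p of 0.05, Il12b stood at a log2 change of 7.9, Lif at 4.41 and Osm at 3.51. In the authors' deposited table of WT cells at 12 h over 0 h, Il23a stood at 6.18, Il12b at 4.24, Lif at 3.31 and Osm at 2.36. The values of Il12b in KO cells and Il23a in WT cells rest on 0 h groups without a count, so they are not measured sizes. The other 11 of the authors' deposited tables list none of the 8 genes.

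No change of the receptors of these cytokines was called at 12 h. Of 8 receptor genes 4 passed the filter, and by edgeR 0 were called at 12 h in KO or in WT cells, as by DESeq2, with 1 at an unadjusted p under 0.05 (Il6ra in KO). Il6st, encoding gp130, was at 125 CPM in KO cells at 12 h and 126 CPM at 0 h, a log2 difference of -0.03 ± 0.30, and in WT cells at 122 CPM at 12 h and 173 CPM at 0 h, a log2 difference of -0.52 ± 0.29 (edgeR adjusted p = 0.975 in KO and 0.253 in WT). Il6ra, the receptor chain for IL-6, had a log2 difference of -0.64 ± 0.23 in KO cells (edgeR adjusted p = 0.0577) and -0.34 ± 0.22 in WT cells (adjusted p = 0.317). At 12 h Lifr had log2 differences of -0.48 ± 0.42 in KO cells and -0.42 ± 0.40 in WT cells. Those of Il12rb2 were 0.27 ± 0.64 and 0.63 ± 0.60 in the same order. Earlier, at 9 h, Lifr was called lower than at 0 h in KO cells, at -1.5 ± 0.46 (edgeR adjusted p = 0.0321). At that time 5% of all genes were called lower in KO cells. Lifr was not called in WT cells at 9 h, at -1.10 ± 0.42 (edgeR adjusted p = 0.102). Il12rb1, Il23r, Il27ra and Osmr were below the filter, with 57, 14, 158 and 109 counts over all libraries. Of the further ligands reported, Ctf1 and Il31 had no count, Il11 and Cntf had 4 and 7 in all, and Clcf1, a ligand of the CNTF receptor, was tested. Clcf1 averaged 12.9 CPM in KO cells at 12 h and 5.21 CPM in WT cells at 12 h, a log2 difference of 1.25 ± 0.31 (edgeR adjusted p = 0.0274), a call that was lost with the small RNA share as a covariate.

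Among the JAK and STAT genes reported here, which carry the signal of these receptors, Jak2 and Stat4 rose at 12 h in both genotypes, and Jak1, Tyk2 and Stat3 were not called in either. DESeq2 called Stat4 in both genotypes and Jak2 in WT cells. Jak2, a kinase bound to several of these receptors, rose by 0.21 ± 0.07 in KO cells and by 0.29 ± 0.07 in WT cells on the log2 scale (edgeR adjusted p = 0.0454 and 0.0051). It was also higher in KO than in WT cells, by 0.37 ± 0.07 at 0 h, 0.29 ± 0.07 at 3 h, 0.29 ± 0.07 at 12 h and 0.28 ± 0.03 over all times (edgeR adjusted p = 0.00163, 0.014, 0.0239 and 1.78e-07), with the 12 h and the all-time calls made by DESeq2 too and lost with the small RNA share as a covariate. Stat4, which transmits IL-12 signals, had 26, 4 and 10 counts in KO cells at 12 h and 1, 0 and 0 at 0 h, a ratio of 37.1 with a 95% counting interval of 6.29 to 1500 (edgeR adjusted p = 0.0135). In WT cells it had 33, 12 and 20 counts at 12 h and 3, 0 and 1 at 0 h, a ratio of 13.3 with an interval of 4.97 to 50.4 (edgeR adjusted p = 0.0147). Stat3 had log2 differences at 12 h from 0 h of 0.16 ± 0.10 in KO cells and -0.13 ± 0.09 in WT cells (edgeR adjusted p = 0.297 and 0.392). At 9 h Stat3 and Tyk2 were called higher than at 0 h in KO cells, at 0.32 ± 0.09 and 0.58 ± 0.13 (edgeR adjusted p = 0.0251 and 0.00251). From 9 h to 12 h both were called lower in WT cells, at -0.37 ± 0.09 and -0.44 ± 0.12 (edgeR adjusted p = 0.00815 and 0.0152). Of 9 STAT3 targets and negative regulators, 2 rose and 2 fell at 12 h in KO cells, where 8.13% of all genes rose and 6.58% fell. In WT cells 3 rose and 1 fell, where 9.64% of all genes rose and 8.47% fell. Socs3, the feedback inhibitor of gp130 signalling, rose by 0.61 ± 0.10 in KO cells (edgeR adjusted p = 0.00011) and by 0.35 ± 0.10 in WT cells (adjusted p = 0.0155). Before 12 h Socs3 was called lower than at 0 h in WT cells. Its log2 change was -0.55 ± 0.11 at 6 h and -0.35 ± 0.10 at 9 h (edgeR adjusted p = 0.0016 and 0.0277). Pim1, a kinase gene induced by STATs, rose by 0.56 ± 0.05 in KO cells (edgeR adjusted p = 8.33e-09) and by 0.37 ± 0.05 in WT cells (adjusted p = 8.73e-06). Ptpn6, a phosphatase that dampens cytokine receptors, fell by 0.30 in KO and by 0.28 in WT cells on the log2 scale (edgeR adjusted p = 0.023 and 0.0218). Socs1 fell by 0.62 in KO cells (edgeR adjusted p = 0.0308). Its log2 difference in WT cells at 12 h was -0.52 ± 0.19 and was not called (edgeR adjusted p = 0.056). Socs1 was also called lower than at 0 h at 6 h in both genotypes and at 9 h in KO cells. At 12 h DESeq2 called Pim1 and Socs3 in each genotype and none of the falls. Ptpn6 was also lower in KO than in WT cells, by log2 differences of -0.35 ± 0.09 at 3 h and -0.33 ± 0.09 at 9 h (edgeR adjusted p = 0.0144 and 0.0277). Over all times its difference was -0.24 ± 0.04 (edgeR adjusted p = 5.92e-05), where 24.9% of all genes were called. DESeq2 made that all-time call too, and it was lost with the small RNA share as a covariate.

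Most of the transcription factors listed as acting on these cytokine genes rose at 12 h. Of 9, 8 rose at 12 h in KO cells, where 8.13% of all genes did. In WT cells 6 rose, where 9.64% did, and none fell in either. Some were called higher than at 0 h before 12 h. Atf3 and Cebpb were called from 3 h on in both genotypes, and Rel from 3 h in KO cells and from 6 h in WT cells. Irf1 was called from 9 h in KO cells and from 6 h in WT cells, and Nfkbiz from 9 h in both. From 9 h to 12 h neither Atf3 nor Cebpb was called in either genotype. At 6 h Nfkb1 was called lower in WT cells, at -0.29 ± 0.08 (edgeR adjusted p = 0.0259), where 2.67% of all genes were. Nfkbiz, a nuclear cofactor of NF-kappaB needed for Il6 and Il12b induction in mouse macrophages, rose to 90.2 CPM in KO cells at 12 h, against 4.96 CPM at 0 h, a log2 change of 4.14 ± 0.34 (edgeR adjusted p = 1.11e-09). In WT cells it rose to 84.4 CPM at 12 h, against 5.66 CPM at 0 h, a log2 change of 3.84 ± 0.33 (edgeR adjusted p = 1.81e-09). Rel, the NF-kappaB subunit c-Rel, rose by 1.52 ± 0.09 in KO cells (edgeR adjusted p = 4.15e-13) and by 1.48 ± 0.09 in WT cells (adjusted p = 4.89e-13). Irf1 rose by 1.31 ± 0.18 in KO cells and 1.04 ± 0.18 in WT cells (edgeR adjusted p = 6.44e-06 and 0.000163), and Atf3, a repressor of Il6 and Il12b in mouse macrophages, by 1.04 ± 0.07 and 0.83 ± 0.07 in the same order (edgeR adjusted p = 4.52e-12 and 3.61e-10). Rela and Irf8 were called in KO cells and not in WT cells, and between KO and WT at 12 h edgeR and DESeq2 called 0 of the 9, with 2 at an unadjusted p under 0.05. Over all times edgeR called 6 of the 9 between the genotypes, where 24.9% of all genes were called. Rel and Nfkb1 were higher in KO cells, by 0.19 ± 0.04 and 0.10 ± 0.03, and Rela, Atf3, Irf8 and Cebpb were lower, with log2 differences of -0.17 ± 0.06, -0.15 ± 0.03, -0.25 ± 0.05 and -0.12 ± 0.03. DESeq2 called 4 of these (Rel, Atf3, Irf8 and Cebpb), and none was called with the small RNA share as a covariate. At single times edgeR called Rel higher at 3 h and 9 h, Atf3 lower at 3 h and 6 h, and Cebpb lower at 9 h. Of 5 genes that control the decay or stability of such mRNAs, Zc3h12a, encoding the RNase Regnase-1, and Zfp36, encoding tristetraprolin, rose in both genotypes. Zc3h12a rose by 0.60 ± 0.13 in KO cells and 0.47 ± 0.13 in WT cells (edgeR adjusted p = 0.00188 and 0.0105), and Zfp36 by 0.74 ± 0.24 and 1.26 ± 0.24 in the same order (edgeR adjusted p = 0.0394 and 0.000727). With the small RNA share as a covariate 4 of the 9 transcription factors stayed called in WT cells (Rel, Atf3, Nfkbiz and Cebpb) and none of the JAK and STAT, STAT3 target or mRNA decay genes did, while in KO cells Jak2 was the single call lost from these lists.

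**Figure D5:**
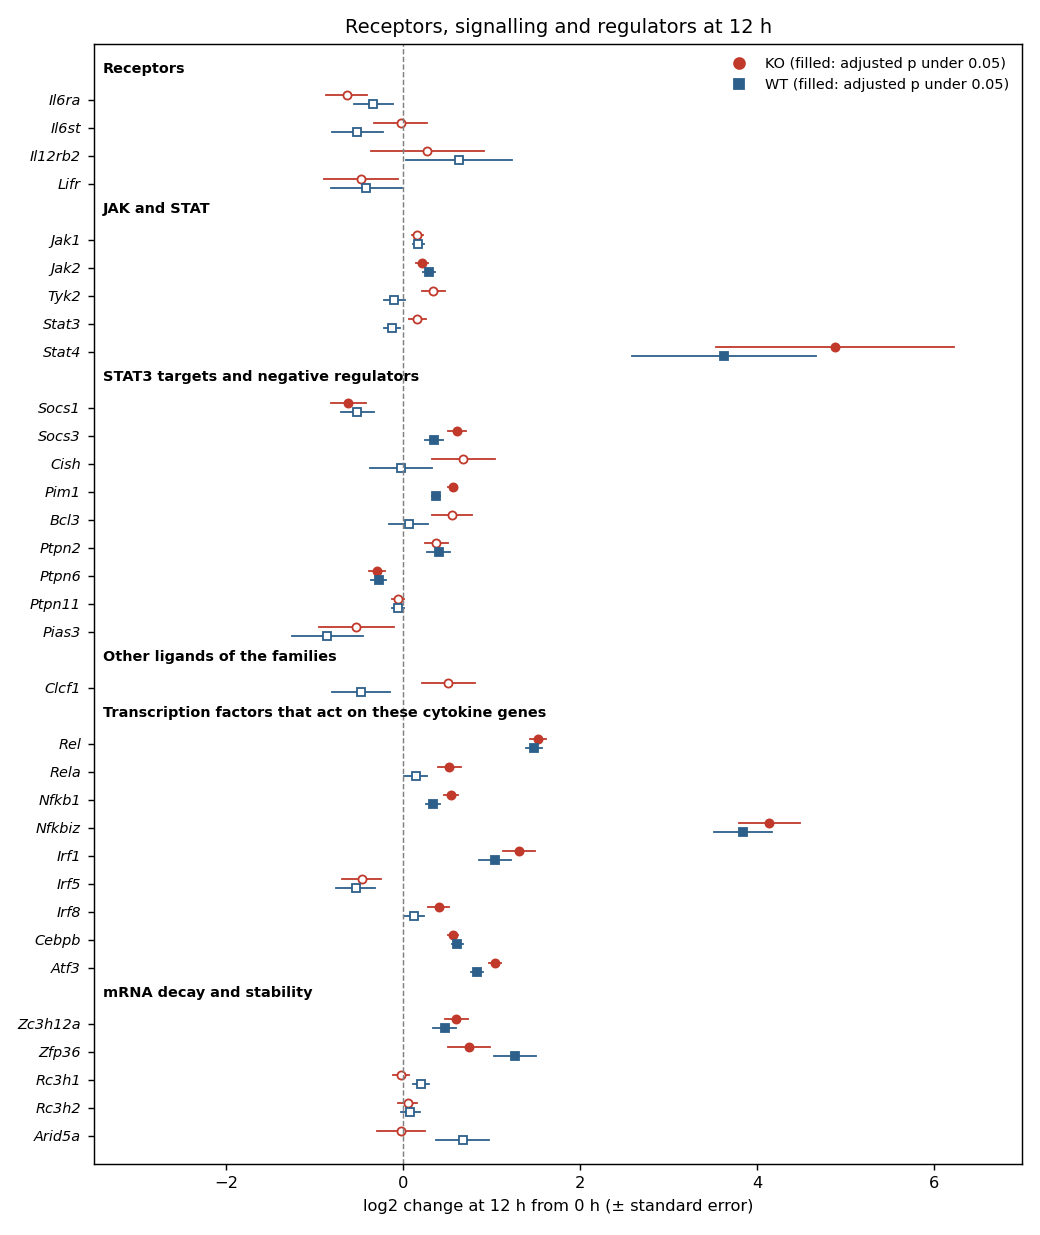
Log2 change at 12 h from 0 h (horizontal axis) with its standard error for Jak1, Jak2, Tyk2, Stat3, Stat4 and the tested genes of the other lists, with KO circles above WT squares and filled symbols where the edgeR adjusted p was under 0.05. Nfkbiz, Rel, Irf1 and Atf3 lie right of 0 in both genotypes, the receptors have open symbols, and the values of Stat4 rest on 1 count in KO cells and 4 in WT cells at 0 h.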

How the data were processed

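RNA-seq libraries of 30 samples in 10 groups of genotype and time were used. The deposited table gives whole-number counts per Ensembl gene, taken as the authors' raw counts from its values. The build GRCm38 and the tools HISAT2, Trimmomatic 0.35, DESeq2 and StringTie are named in the submitters' processing notes, while the sources used here give neither their order nor the annotation nor the strand setting. Counts taken from StringTie can be rounded estimates. Per the file headers, 13 further deposited tables give the authors' log2 fold changes, the authors' p-values and a signal per library. By their values, the signals are the counts divided by a constant for each library within each table, and they were not used. 0 columns of per-sample values were left unmapped, and 0 rows named no gene.

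Names and positions came from GENCODE M21 (54495 of 54532 identifiers found). Genes were kept with filterByExpr (minimum count 10), which left 12393, and libraries were scaled by TMM. The robust quasi-likelihood model of edgeR 4.0.16 (R 4.3.3) had a mean for each of the 10 groups and used every library (biological coefficient of variation 13.7%, residual degrees of freedom 20). Two-sided p-values were Benjamini-Hochberg adjusted across the 12393 genes and called under 0.05, and intervals of log2 changes are 95% intervals of the fit. CPM are counts over scaled totals. A group with no count was set to 3 counts in all, and pooled ratios have exact 95% intervals. These floors and intervals describe counting error alone, because PCR copies without molecular identifiers are counted as separate reads. Il12a and Il27, below the filter, were compared with exact permutation tests in SciPy 1.17.1. The fit was tested on simulated data.

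The cytokines, the lists of receptors, signalling genes, regulators and markers, and the tests were chosen with earlier results of these data known. The genes named are the 8 cytokines, the members of those lists and the 3 genes most like each tested cytokine, searched among genes with at least 5 CPM in their highest group, and 2 list members are not reported here. Alternatives were no filter, RLE scaling, DESeq2 1.42.0, only the groups compared, the replicate number as a block, each library left out and, added after seeing the data, the small RNA share as a covariate. No 2 libraries of a group agreed within sampling noise (chi-square per degree of freedom at least 2.37).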

Additional observations from a re-analysis of the deposited data

How the results depend on the processing

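Of 751 log2 values of single cytokines that had an adjusted p under the alternatives, 703 kept their direction and their side of the threshold. Of the rest 38 lost a call, 3 gained one and 7 turned round. The 751 include values that were not called in the main fit, so 703 does not give the share of calls that held. DESeq2 gave no adjusted p for 22 more, 7 of them called by edgeR, and these are not lost calls. The number of cytokines called at 6 h in KO cells was 0 with only the groups compared, against 1, and at 9 h it was 0 with DESeq2 and 1 with only the groups compared, against 2. At 12 h in KO cells DESeq2 called 3 against 5. DESeq2 gave no adjusted p for Il6 and Il23a there, nor for Il6, Il12b, Il23a and Lif at 9 h. At 9 h in WT cells 0 were called, against 1, without the filter, with DESeq2, with only the groups compared and with either replicate block, though DESeq2 gave no adjusted p for Il12b there. With a library left out 0 to 1 were called, the 1 being Lif without WT 0 h replicate 1 and otherwise Il12b. At 6 h in WT cells 0 to 1 were called with a library left out, the 1 being Il12b without WT 0 h replicate 3 (adjusted p = 0.0403). The small RNA share as a covariate left 0 of the 4 WT calls at 12 h and 0 of the 3 over the step from 9 h to 12 h, where 1 to 2 were called with a library left out. Ebi3 over all times was 0 calls, against 1, without the filter, with DESeq2 and with that covariate. That covariate also gave -0.80 for Lif over all times, against 0.13. The cause of these changes was not tested.

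Values that turned round were uncalled. With a library left out, Osm at 9 h in WT cells ran from -0.28 to 0.64, Ebi3 over the WT step from -0.04 to 0.26, Il23a between genotypes at 12 h from -0.02 to 0.41, Lif over all times from -0.01 to 0.30 and the 12 h interaction of Ebi3 from -0.25 to 0.05.

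The deviations of libraries from their group means were correlated between libraries of the same and of other replicate numbers. Across genotypes the median was 0.0304 for the same number and -0.00869 for other numbers. Within genotypes it was 0.018 and -0.0122 in that order. Same-numbered libraries ran from -0.213 to 0.276 across genotypes. These small medians cannot settle whether the replicate numbers pair the samples. With the replicate block, Il12b lost its WT calls at 9 h (adjusted p = 0.0507) and over the step to 12 h (adjusted p = 0.0608). With the block within genotype these were 0.0625 and 0.0727, and Il23a lost its KO call over that step (adjusted p = 0.0663). No other call of the cytokines changed with either block. RLE scaling changed no call.

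Over all genes, 1823 were called at 12 h in KO cells and 2245 in WT cells. Without the filter these were 1187 and 1486, and with the small RNA share as a covariate 1788 and 212. The few reads of Il12a and Il27 limit what their tests can show.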
